A study of Mus musculus with 2 samples.

Results

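The cells described here are fibroblasts of the tissue behind the retina that contained RNA of Edn3, Pgf, Serpine2 and Smoc1. They were chosen by a rule on counts. A cell barcode needed at least 1500 unique molecular identifiers (UMIs, 1 per captured RNA molecule) and 200 genes, and at least 3 UMIs over Edn3, Pgf, Serpine2 and Smoc1 together. It could hold at most 2 UMIs over Sfrp2, Fmod, Pi16, Clec3b and Ogn, which mark another kind of fibroblast, no UMI of the leukocyte gene Ptprc, at most 1 of the endothelial genes Plvap and Cldn5, and at most 1 of the pigment epithelial genes Rgr and Rpe65. This rule gave 313 of 3377 cells. They are called Edn3-type fibroblasts below, and the genes of the rule are described without a test.

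The choroid is the vascular and pigmented layer that feeds the outer retina, and its stroma holds fibroblasts, melanocytes, vessels and immune cells. Fibroblasts there descend in large part from the neural crest, lay down collagen and elastic fibres, and release factors that act on neighbouring vessels and melanocytes. Edn3 encodes endothelin 3, a ligand of the receptor Ednrb that melanocyte precursors need. Pgf encodes placental growth factor, a ligand of the VEGF receptor Flt1, Serpine2 encodes protease nexin 1, an inhibitor of thrombin and related proteases, and Smoc1 encodes a matrix protein that antagonizes BMP signalling and is required for eye development.

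Both libraries came from mouse eye cups at 10 weeks of age, with retinal pigment epithelium (RPE) and choroid of 1 male and 1 female pooled in each. The first genotype was Tsc1 flox (Tsc1tm1Djk/J), a conditional allele without Cre, and the second was Tsc1 RPE KO (Tsc1tm1Djk/J; Best-Cre), in which the labels describe the loss of Tsc1 as specific to the RPE, so both carry the floxed allele. The neural retina was removed, the eye cups were digested with collagenase, dispase and trypsin, and live cells were sorted before loading on the 10x Genomics platform. There was 1 library per genotype. Differences between genotypes therefore have no replicate check and no p-value, and all intervals are exact 95% intervals that cover counting error only.

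The bases just upstream of the RefSeq starts of the genes of the marker sum are shown because these genes were read together in most of the cells. Edn3 lies on chromosome 2 (174760619 to 174784042, plus strand), Serpine2 on chromosome 1 (79794197 to 79861180, minus strand), and Pgf and Smoc1 on chromosome 12 (85166635 to 85177790, minus strand, and 81026808 to 81186414, plus strand; mm10 with GENCODE M21). RefSeq windows (GRCm38.p6) matched 3 of the 4 genes, Smoc1 being the fourth, and Pgf had 2 annotated starts. The RefSeq starts of Serpine2 and Pgf lie inside the GENCODE intervals above, so their windows do too. The 250 bases before each start are printed 5′ to 3′ on the gene's strand, at chr2:174760369-174760618 for Edn3, chr12:85177314-85177563 and chr12:85175983-85176232 for Pgf and chr1:79858666-79858915 for Serpine2. Capitals mark matches, on either strand, to the E-box CAGCTG or the GC box GGGCGG, and neighbouring GC boxes may overlap.

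Edn3 upstream: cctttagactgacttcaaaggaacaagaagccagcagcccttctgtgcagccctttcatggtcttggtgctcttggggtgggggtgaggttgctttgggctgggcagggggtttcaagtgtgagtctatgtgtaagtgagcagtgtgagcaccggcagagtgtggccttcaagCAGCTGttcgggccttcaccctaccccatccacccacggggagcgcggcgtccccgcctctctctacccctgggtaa
Pgf upstream of the distal start: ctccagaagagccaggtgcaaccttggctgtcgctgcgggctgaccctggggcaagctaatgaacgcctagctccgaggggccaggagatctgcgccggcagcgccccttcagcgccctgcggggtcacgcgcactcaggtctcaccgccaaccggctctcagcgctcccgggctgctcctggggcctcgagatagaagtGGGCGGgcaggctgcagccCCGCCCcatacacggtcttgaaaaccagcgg
Pgf upstream of the proximal start: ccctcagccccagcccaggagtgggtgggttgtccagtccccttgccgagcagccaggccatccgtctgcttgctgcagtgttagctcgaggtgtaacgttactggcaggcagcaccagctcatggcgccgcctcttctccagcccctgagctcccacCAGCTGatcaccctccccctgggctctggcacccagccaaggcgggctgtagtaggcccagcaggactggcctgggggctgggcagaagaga
Serpine2 upstream: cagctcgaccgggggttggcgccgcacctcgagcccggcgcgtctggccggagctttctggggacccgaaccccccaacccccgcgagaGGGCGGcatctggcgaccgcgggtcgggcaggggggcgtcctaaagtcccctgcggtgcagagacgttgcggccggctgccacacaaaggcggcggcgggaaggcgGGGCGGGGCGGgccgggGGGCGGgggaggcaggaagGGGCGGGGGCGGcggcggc

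The E-box CAGCTG occurred 1 time in the Edn3 window and 1 time in the proximal Pgf window. It occurred in 13.0% of all 32851 windows of the same length. The GC box GGGCGG occurred 6 times before Serpine2 and 2 times before the distal Pgf start, against at least 1 match in 32.7% of all windows. The bicoid-class homeodomain letters TAATCC (6.25% of all windows) and the forkhead letters TGTTTA (12.03%) had no match in these 4 windows. The motifs were chosen after the sequences had been read, and a match is only a match of letters. GC content was 59.2% for Edn3, 68.4% and 66.4% for Pgf and 78.8% for Serpine2, so the windows did not share a base composition.

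Edn3-type fibroblasts were 186 of 1530 cells in Tsc1 flox (12.2%, 10.6 to 13.9%) and 127 of 1847 cells in Tsc1 RPE KO (6.88%, 5.76 to 8.13%). Among barcodes without a Ptprc UMI the shares were 39.4% and 24.4%, a denominator added after the data had been seen. Both denominators put the share lower in Tsc1 RPE KO, and a share of sorted cells also moves with the number of every other cell type recovered. The members held 727101 UMIs in flox and 490898 in Tsc1 RPE KO, with a median of 3631 and 3618 UMIs per cell, so depth differed little between the libraries. Median mitochondrial UMIs were 2.51% and 2.52%, and ribosomal protein UMIs 7.37% and 7.10%. The libraries shared 2 cell barcodes, and 0 of these were members.

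The marker sum divided the cells cleanly, whereas the limit on the Sfrp2-type sum did not. With the other limits met, 178 of the flox members and 124 of the Tsc1 RPE KO members held 7 or more marker UMIs, and the median sum was 21.5 and 24. Just inside the limit, at a sum of 3 or 4, lay 6 flox cells and 1 Tsc1 RPE KO cell, and just outside, at 1 or 2, lay 6 and 7 cells. None of the cells just outside held a UMI of Lum, Pdgfra, Cxcl12 or Col1a1, and 1 Tsc1 RPE KO cell there held 1 UMI of Dcn. Of the 6 flox cells just inside, only 2 held Lum, 2 Dcn and 1 Pdgfra, while 4 held Cxcl12 and 4 Col1a1. The 1 Tsc1 RPE KO cell just inside held all 5 of these genes. Across the Sfrp2-type limit the cells ran on without a gap, with 16 and 13 members at a sum of 2 and 15 and 8 excluded cells at 3. In all, 56 and 38 cells passed the marker sum and were excluded by the Sfrp2-type sum. Ogn was read in 44 and 34 of these, Pi16 in 39 and 27, and Sfrp2 itself in 9 and 7.

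**Figure D1:**
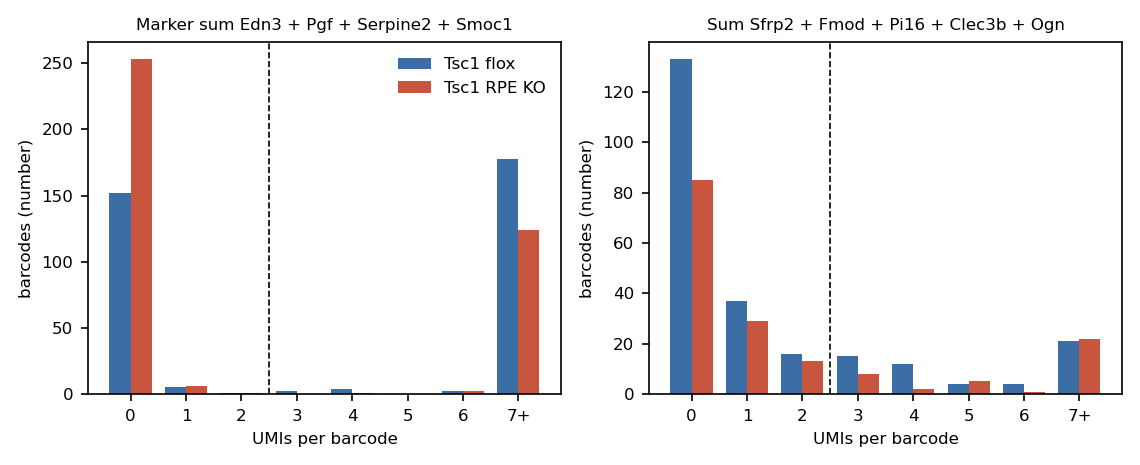
Number of barcodes (y axis) by UMIs per barcode (x axis) of the marker sum, left, among barcodes that met the other limits, and of the Sfrp2-type sum, right, among barcodes with a marker sum of at least 3. Blue bars are Tsc1 flox, red bars Tsc1 RPE KO, and dashed lines are the limits; the left panel is almost empty between 1 and 6, while the right panel falls gradually from 133 and 85 cells at 0.

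Each gene of the marker sum was read in most members. Edn3 gave 1485 UMIs in flox and 987 in Tsc1 RPE KO, 2042 and 2011 per 1000000 UMIs of the members (CPM), and was read in 96.8% and 96.1% of members. Serpine2 stood at 2330 and 2679 CPM in 98.9% and 98.4% of members. Pgf stood at 1164 and 1216 CPM in 85.5% and 83.5%, and Smoc1 at 580.4 and 645.8 CPM in 79.6% and 81.9%. All 4 genes were read in 126 flox and 87 Tsc1 RPE KO members, and 1 gene alone in 1 member of each. With every member thinned to 1500 UMIs the share with Edn3 was 88.7% and 85.8%, and the share with Pgf 65.6% and 69.3%. Free RNA was low by the same measure, since Edn3 was read in 1.79% and 0.786% of 670 and 636 lymphocytes, at median depths of 4604 and 4643 UMIs. The ratio of Tsc1 RPE KO over flox was 0.984 for Edn3 and 1.15 for Serpine2, given as a description since these genes chose the members.

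All 15 core fibroblast markers had UMIs in the members of each library. This alone does not support the label, since all 11 rod markers also had UMIs in the Tsc1 RPE KO members. The levels are therefore given. Dcn (decorin, a collagen-binding proteoglycan) stood at 4470 and 4834 CPM, Mgp (matrix Gla protein, an inhibitor of calcification) at 4266 and 4406, and Col1a1 (the main chain of type I collagen) at 1096 and 843.4. Lum (lumican, which spaces collagen fibrils) was read in 90.9% and 88.2% of members, and Pdgfra, the PDGF receptor typical of fibroblasts, in 75.3% and 62.2%. Fn1, fibronectin, was nearly unread, with 3 and 2 UMIs. The counts cannot place a cell in the choroid rather than the sclera. Of 11 scleral and cartilage markers, 6 and 8 had UMIs, and Acan, Cilp and Col2a1 were at 0 in both libraries. The list summed to 14 and 36 UMIs, or 19.3 and 73.3 CPM, against 77.6 and 66.0 CPM in free RNA. Because the rule limits the Sfrp2-type sum, nothing on the site of the cells is read from these sums.

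Markers of melanocytes, leukocytes and rods were scarce outside single cells, whereas some mural and endothelial markers were read in many members. Of 11 melanocyte markers, Pmel, Mlana, Tyrp1, Tyr, Slc45a2 and Oca2 were at 0 in both libraries, and the list summed to 16 and 6 UMIs. The 12 leukocyte markers summed to 148.5 and 97.8 CPM, and 52 of their 108 flox UMIs were in 1 barcode that held 206 Ccl4 UMIs, no Dcn, Lum or Edn3, and 4 UMIs of Serpine2. This barcode met the rule through Serpine2 alone. One Tsc1 RPE KO member held 46 of the 86 UMIs of the 11 rod markers, together with 5 Edn3, 6 Pgf and 8 Serpine2 UMIs. The 11 mural markers summed to 756.4 and 839.3 CPM in the members, against 237.8 and 163.2 CPM in free RNA, and 30 and 28 members held 5 or more mural UMIs. Of this list, Cnn1 was at 0 in both libraries and Acta2 had 3 and 22 UMIs, while Des, Kcnj8 and Abcc9 were read in 29.0% to 40.2% of members. Rgs5, a marker of pericytes, gave 152 and 87 UMIs in only 13.4% and 16.5% of members. Of 11 endothelial markers, 10 had UMIs in flox, with Flt1 at 0, and 8 in Tsc1 RPE KO, with Cldn5, Egfl7 and Ctla2a at 0. Plvap and Cldn5 of this list were limited by the rule. The list gave 445 and 263 UMIs, of which Emcn (endomucin) alone gave 396 and 228, in 72.6% and 70.9% of members.

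The members carried RNA of many factors that act on vessels, pigment cells and leukocytes. In the endothelin group, Ece1, the enzyme that releases active endothelins, stood at 427.7 and 438.0 CPM, and the receptor Ednra at 171.9 and 142.6 CPM in 45.7% and 33.9% of members. The other receptor, Ednrb, had 0 UMIs in flox, which allows up to 3, and 9 in Tsc1 RPE KO. In the VEGF and angiopoietin group, Angpt1, a ligand of the endothelial receptor Tie2, stood at 1054 and 874 CPM, and Vegfa at 158.2 and 191.5 CPM. The VEGF and semaphorin co-receptors Nrp1 and Nrp2 stood at 646.4 and 517.4 CPM and at 554.3 and 411.5 CPM. Kitl, the ligand of the melanocyte and mast cell receptor Kit, stood at 838.9 and 507.2 CPM. Cxcl12, a chemokine that holds leukocytes and progenitors in place, stood at 1363 and 1122 CPM in 90.9% and 87.4% of members. Over all members, Angpt1, Kitl and Cxcl12 stood higher in flox and Vegfa higher in Tsc1 RPE KO. Kitl was the one of these 4 ligands past 1.5-fold between the genotypes. The ratio of Tsc1 RPE KO over flox for Vegfa was 2.19 in members with Xist and 0.650 in members with a Y-linked UMI. For Angpt1 these ratios were 0.743 and 1.04. Kitl and Cxcl12 were lower in Tsc1 RPE KO in both kinds of members.

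The summed counts of the members were compared with those of Sfrp2-type fibroblasts from the same libraries. These held at least 3 UMIs of the Sfrp2-type sum and at most 2 of the marker sum. They were only 18 flox and 10 Tsc1 RPE KO cells, with 97890 and 43206 UMIs. The 56 and 38 cells that passed both sums were in neither group. Their Col1a1 stood at 4246 and 3036 CPM, between the levels of the 2 groups given below, so the comparison sets 2 ends of a range against each other. The libraries served as the replicates and as a block in edgeR's quasi-likelihood test, with 1 residual degree of freedom before the spread was pooled over genes, so that the adjusted p-values rest on a spread shared by all genes. Genes of the rule got no test, and both groups were chosen on these genes. Of 5624 genes tested, 174 (3.09%) were higher and 229 (4.07%) lower in Edn3-type fibroblasts at an adjusted p under 0.05 and at least 2-fold. DESeq2 on the same sums called 25 higher and 97 lower, all among the former, so calls it did not make are named below. Of the 403 genes called by edgeR, 401 lay on the same side in both libraries. The calls were made from these same sums and nearly require this, so it is no independent check.

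Among the signalling genes, 4 of 5 tested genes of the VEGF and angiopoietin list were higher in Edn3-type fibroblasts and 0 lower, with a median log2 difference of 2.58 against 0.09 over all genes tested. Nrp2 had 403 and 202 UMIs in the Edn3-type against 1 and 0 in the Sfrp2-type fibroblasts (adjusted p = 5.08e-11). Angpt1 had 766 and 429 against 3 and 4, a fitted log2 difference of 4.12 (adjusted p = 3.95e-11). Nrp1 was higher by 2.58 and Vegfa by 2.16 on the log2 scale (adjusted p = 1.31e-05 and 0.0184), and the call of Vegfa was lost with DESeq2. Of 10 tested growth factor and receptor genes, Kitl (log2 3.15, adjusted p = 2.17e-07) and Hgf were higher and 0 lower. Hgf, hepatocyte growth factor, was read 54 and 26 times against 0 and 0, and its call was lost with DESeq2. A gene at 0 in both Sfrp2-type sums could only be called higher. With 0 set to 3 counts as a bound, Hgf was not higher in Edn3-type than in Sfrp2-type fibroblasts of Tsc1 RPE KO. Pdgfra and Pdgfrb did not pass, with fitted log2 differences of 0.72 and 0.66. Cxcl12 was higher by 2.11 (adjusted p = 8.8e-05), and Cxcl1, a neutrophil chemokine, was 8.02-fold higher (adjusted p = 1.3e-05). In the Wnt list of 6 tested genes, Wnt5a and Rspo3 were higher, both lost with DESeq2, and Sfrp4, a secreted Wnt inhibitor, was lower, with 0 and 2 UMIs against 37 and 135.

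**Figure D2:**
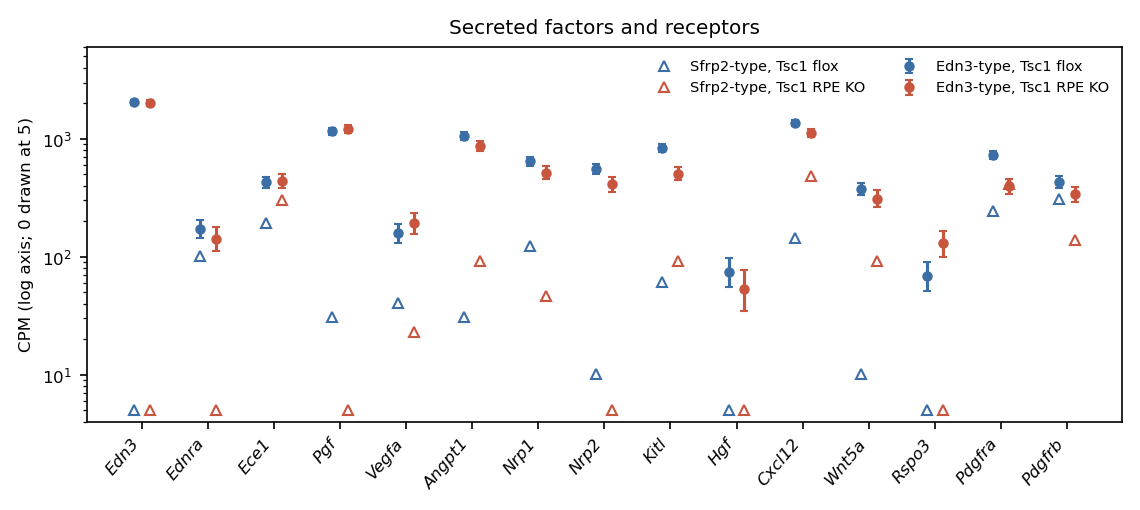
CPM (log axis) of secreted factors and receptors in Edn3-type fibroblasts (filled circles with exact Poisson intervals) and Sfrp2-type fibroblasts (open triangles, values of 0 drawn at 5), in Tsc1 flox (blue) and Tsc1 RPE KO (red). Edn3 and Pgf belong to the rule; Angpt1, Nrp2 and Kitl show circles far above triangles in both libraries, and the Pdgfra circles lie close to the triangles.

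Most of the matrix lists held more lower than higher genes. Of the 15 core fibroblast markers, 11 were lower (8 with DESeq2) and 0 higher in Edn3-type fibroblasts, with a median log2 difference of -1.83. Of 14 tested collagen genes 11 were lower and 1, Col8a1, was higher in Edn3-type fibroblasts, with a median log2 difference of -1.998. DESeq2 kept 7 of the 11 and not Col8a1. Col1a1 stood at 1096 and 843.4 CPM against 12851 and 6180, lower by 3.31 on the log2 scale (adjusted p = 1.16e-09). Col12a1, which ties collagen fibrils to other matrix, had 22 and 29 UMIs against 161 and 22. Of 17 genes of elastic fibres, 9 were lower (3 with DESeq2) and 0 higher (median -1.39), while Eln itself (fitted log2 -0.11) and Timp3, the metalloproteinase inhibitor stored in Bruch's membrane (-0.07), did not pass. Of 10 small leucine-rich proteoglycans, 7 were lower (5 with DESeq2) and 0 higher. Dcn was lower by 2.43 (adjusted p = 0.000164), a call lost without the filter on low counts, yet Lum stood at 2176 and 1499 CPM with a fitted difference of -0.07 that did not pass. Of 11 basement membrane genes, Lama2 and Agrn were higher and Lama4, Nid1 and Hspg2 lower, of which DESeq2 kept Nid1 alone (median -0.19, or -0.39 with genes at 0 at their bound). Of 13 matrix proteases and inhibitors 9 were lower (6 with DESeq2) and 0 higher. Of 11 scleral and cartilage markers 6 were tested, and all 6 were lower, also with DESeq2. The list summed to only 14 and 36 UMIs in the members, so these 6 passed the filter on low counts through the Sfrp2-type sums. That nearly fixes their direction in both tools, and nothing is read from this count. Sparc, a collagen-binding protein, was lower by 3.27 (adjusted p = 8.88e-10). Its relative Sparcl1 was higher by 2.90 (adjusted p = 0.000459), a call lost with DESeq2.

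The 20 highest differences were all of genes with no UMI in the shallower Sfrp2-type sums, so they are given as bounds against 3 counts per library. Alpl, tissue-nonspecific alkaline phosphatase, had 293 and 207 UMIs, at least 13.1-fold higher in flox and at least 6.07-fold higher in Tsc1 RPE KO. Aox3, an aldehyde oxidase, was at least 7.94-fold and 3.05-fold higher, Ptgs2, the inducible cyclooxygenase, at least 7.14-fold and 3.52-fold, and Pappa2, a protease of IGF-binding proteins, at least 4.44-fold and 2.67-fold. Among the others were Scube1, Pcsk1n, Atf3, Zc2hc1c, Mical2, Alkal2, Cldn11, Abcg2, Snai1, F11r, Col27a1, Tle2, Rspo3, Ptger2 and Tec, the last at least 3.05-fold and 1.06-fold higher. DESeq2 kept the call of Pcsk1n alone among these 20, and did not call Kera or Mmp3 among the 12 lowest. At the other end, Kera (keratocan) and Mmp3 (stromelysin 1) had 0 UMIs in the Edn3-type fibroblasts of both libraries. Kera had 22 and 42 UMIs in the Sfrp2-type fibroblasts, which puts it at least 54.5-fold and 159.1-fold lower in Edn3-type cells. Fn1 had 63 and 40 UMIs in the Sfrp2-type fibroblasts against 3 and 2, lower by 7.50 on the log2 scale (adjusted p = 2.53e-36). Angptl7, Sfrp4, Ly6c1, Adamts5, Aspn, Thbs4, Steap3, Fgl2 and Col12a1 completed the 12 lowest.

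**Figure D3:**
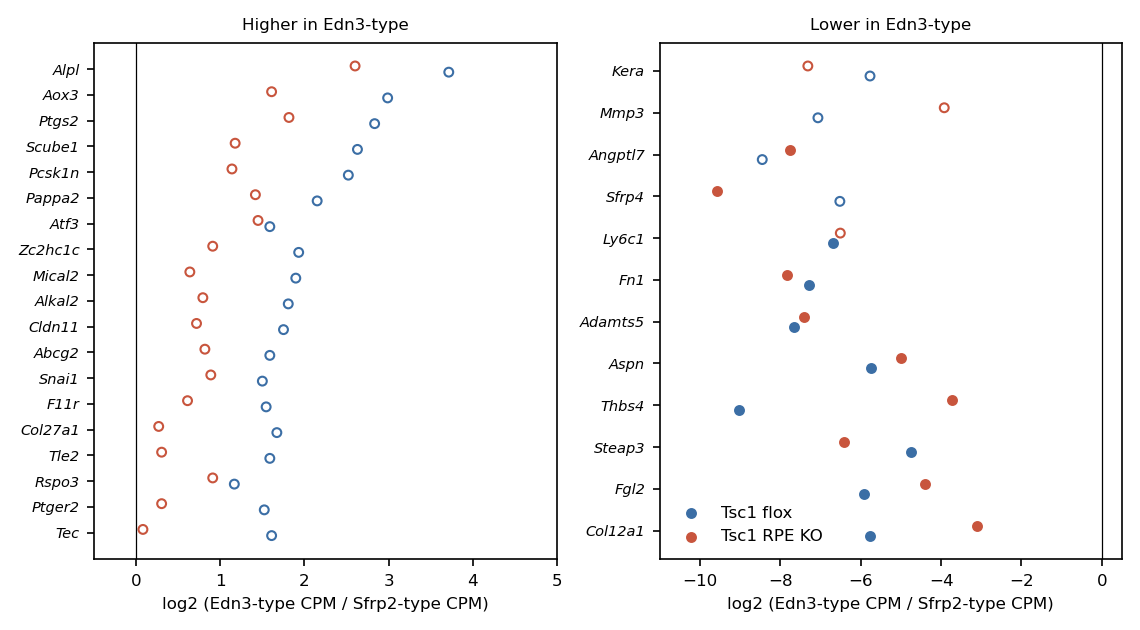
Log2 ratio of CPM in Edn3-type over Sfrp2-type fibroblasts (x axis) in Tsc1 flox (blue) and Tsc1 RPE KO (red), left for 19 of the 20 highest fitted differences and right for the 12 lowest. Open circles are bounds, where 1 sum held 0 UMIs and was set to 3; all circles of the left panel are open, and each gene lies on 1 side of 0 in both libraries.

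Regulators of periocular development were read in the members, and edgeR but not DESeq2 called 5 of them between the types. Of 19 tested genes of the list, 3 were higher in Edn3-type fibroblasts, Foxc1 and Foxd1 among them, and Prrx1 and Ebf1 were lower. Foxc1, a forkhead factor of the periocular mesenchyme, stood at 515.7 and 431.9 CPM against 132.8 and 46.3 (log2 2.19, adjusted p = 0.000364). Foxd1 had only 29 and 34 UMIs against 0 and 0, and its log2 difference was -0.24 with Sfrp2-type barcodes that held Sfrp2 or Fmod and no limit on the marker sum, a setting added after the data had been seen. All 5 calls were lost with DESeq2, and that of Foxd1 also without the library block. Tcf4, a bHLH factor that binds E-boxes, stood at 1275 and 980 CPM and did not pass. In the retinoic acid list of 10 tested genes, Crabp2 was higher with 32 and 32 UMIs against 0 and 0, a call lost with DESeq2 and without the library block, and 0 were lower. With 0 set to 3 counts as a bound, neither Foxd1 nor Crabp2 was higher in Edn3-type than in Sfrp2-type fibroblasts of Tsc1 RPE KO. Aldh1a2, which makes retinoic acid, stood at 286.1 and 181.3 CPM (fitted log2 1.24, not called). Apoe was higher in Edn3-type fibroblasts by 3.76 (adjusted p = 5.08e-12). Of 10 tested complement genes 1 was higher (0 with DESeq2) and 5 were lower (3 with DESeq2).

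Immediate early genes, which many stimuli induce within minutes, were also higher in Edn3-type than in Sfrp2-type fibroblasts. Of 19 tested genes 12 were higher and 0 lower, with a median log2 difference of 1.53, or 1.45 with Atf3 at its bound. Junb was higher by 2.49 (adjusted p = 2.11e-06) and Ier2 by 2.42 (adjusted p = 3.19e-06). Fos was 2.64-fold higher (adjusted p = 0.0269). DESeq2 kept 3 of the 12 calls, those of Jun, Junb and Ier2. Fos, Junb and Jun were also among the 12 genes that varied most from cell to cell within the members.

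Variation among members was measured within each library as the variance of a gene's UMIs over that of a Poisson variable with the same depths. Over 1239 genes the median ratio was 1.38 in flox and 1.34 in Tsc1 RPE KO. The 12 most variable genes were Malat1, Spp1, Igfbp5, Dcn, Fos, Mgp, Ccn2, Apoe, Junb, Jun, Cxcl1 and Cebpd. Spp1, osteopontin, was the most uneven of the secreted proteins by this measure, at 24.6 and 34.6 times Poisson, and was read in only 16.7% and 13.4% of members with up to 49 and 60 UMIs in a cell. Dcn was at 17.9 and 21.6 times Poisson, with a median of 12 and 11 UMIs per member and a highest value of 162 and 127. Fos was at 16.1 and 19.5 times Poisson, with up to 90 and 95 UMIs in a cell, and was read in 72.6% and 78.0% of members. With members thinned to 1500 UMIs, 11 of the 12 kept a rank within the first 12, and Cxcl1 ranked 13.

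Between the genotypes, the members differed in a minority of genes. Of 4636 genes with at least 50 UMIs over both libraries, 120 (2.59%) were at least 1.5-fold higher in Tsc1 RPE KO and 228 (4.92%) at least 1.5-fold lower, each with a counting interval without 1. The median log2 ratio was -0.04. With counts scaled by the median ratio in place of the totals, 149 were higher and 174 lower. Malat1, whose RNA stays in the nucleus, took 298.4 UMIs per flox member and 349.7 per Tsc1 RPE KO member on average. Tsc1, the targeted gene, had 30 and 19 UMIs in these cells (41.3 and 38.7 CPM) and Tsc2 10 and 13. The labels place the deletion in the RPE, and reads from transcript ends need not lie in the deleted part, so these counts check nothing. Ppp1r1b, named in the series title by its product DARPP32, had 0 UMIs in both, which allows up to 3 UMIs per library.

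Among the genes lowest in Tsc1 RPE KO, Col15a1, a collagen of basement membrane zones on chromosome 4 (47208161 to 47313167), had 119 UMIs in 35 flox members and 7 UMIs in 5 Tsc1 RPE KO members, 11.5-fold lower (5.40 to 29.2). Its flox UMIs were concentrated in few cells, with an upper quartile of 0 UMIs per member and a highest value of 18. Pdgfra on chromosome 5 (75152292 to 75198215) had 531 and 194 UMIs, 1.85-fold lower (1.56 to 2.19). Kitl on chromosome 10 (100015630 to 100100416) had 610 and 249 UMIs, 1.65-fold lower (1.42 to 1.92), and Cdh11, an adhesion protein of mesenchyme, 573 and 229, 1.69-fold lower (1.45 to 1.98). Fbln2, Htra3, Sf3b3, Ubp1, Rtl8a, Zcchc9 and Tmtc3 were 2.27-fold to 3.21-fold lower, with 11 to 38 UMIs in Tsc1 RPE KO. All of these had a ratio below 1 in members with Xist and in members with a Y-linked UMI. With no limit on the Sfrp2-type sum, a setting added after the data had been seen, the ratio of Col15a1 was 0.225, of Zcchc9 0.726, of Htra3 0.905 and of Fbln2 1.78, the last on the other side of 1. Col15a1 and Pdgfra have annotated genes on the opposite strand (Gm12426 and Gm42802), and reads of such pairs could not be told apart here. Ccl4 completed the 12 with 207 and 2 UMIs, but 206 of the former were in the leukocyte-like barcode named above, and without the top member of each library 1 UMI remained on each side. Lum, with 1582 UMIs in flox and 736 in Tsc1 RPE KO, did not reach 1.5-fold, at 1.45-fold lower (1.33 to 1.59).

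The genes highest in Tsc1 RPE KO were in part concentrated in few cells. Myoc, myocilin, an extracellular protein of the outflow tissue of the eye, lies on chromosome 1 (162639155 to 162649693). It had 32 UMIs in 9 flox members and 272 in 14 Tsc1 RPE KO members, 12.6-fold higher (8.71 to 18.8), at a ratio of 10.9 in members with Xist and 35.3 in members with a Y-linked UMI. It overlaps the annotated gene Myocos. Chil1, a chitinase-like secreted protein, had 26 UMIs in 12 members and 120 in 12, with 46.7% of the latter in 1 cell, and was 6.84-fold higher (4.45 to 10.9), or 4.57-fold without the top member of each library. The 12 Tsc1 RPE KO members with 3 or more Myoc UMIs held 109 of the 120 Chil1 UMIs, 62 Igfbp6 UMIs, 144 Edn3 UMIs and 19 Lum UMIs among 53687 in all. The 5 such flox members held 0 of the 26 Chil1 UMIs. These differences moved with the Sfrp2-type limit. With no limit, the Myoc ratio was 1.41 and the Chil1 ratio 0.948. With an Sfrp2-type sum of 0, the Myoc ratio was 5.26, the Chil1 ratio 0.411 and the ratio of Igfbp6 0.936, against 2.14 (1.65 to 2.79) for Igfbp6 under the rule.

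Id1 was more evenly spread. This target of BMP signalling, an inhibitor of bHLH factors, had 163 UMIs in 76 of the flox members and 296 UMIs in 86 of the Tsc1 RPE KO members, 2.69-fold higher (2.21 to 3.28). Id2 was 1.68-fold (1.41 to 2.01) and Id3 1.54-fold (1.42 to 1.68) higher. These 3 genes passed of 8 measured members of the BMP and TGF-beta list, 7 of which had a ratio above 1. The median log2 ratio of the list was 0.33, against -0.04 over all measured genes. With an Sfrp2-type sum of 0, Id2 was at 1.28 and Id3 at 1.37, short of 1.5. Id1 was 3.52-fold higher in members with Xist and 2.003-fold higher in members with a Y-linked UMI, whereas Id3 was 1.84-fold higher in the former and at 0.992 in the latter. Hspb1, a small heat shock protein, had 21 and 67 UMIs, 4.73-fold higher (2.86 to 8.12), or 2.66-fold with an Sfrp2-type sum of 0. Gm12840, Ier5l, Gadd45b, Ptgis, Klf4 and Gm13889 were 1.95-fold to 6.77-fold higher over all members. Gadd45b was at a ratio of 2.69 in members with Xist and 1.01 in members with a Y-linked UMI, Ier5l at 2.76 and 1.18, and Klf4 at 2.61 and 1.21.

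**Figure D4:**
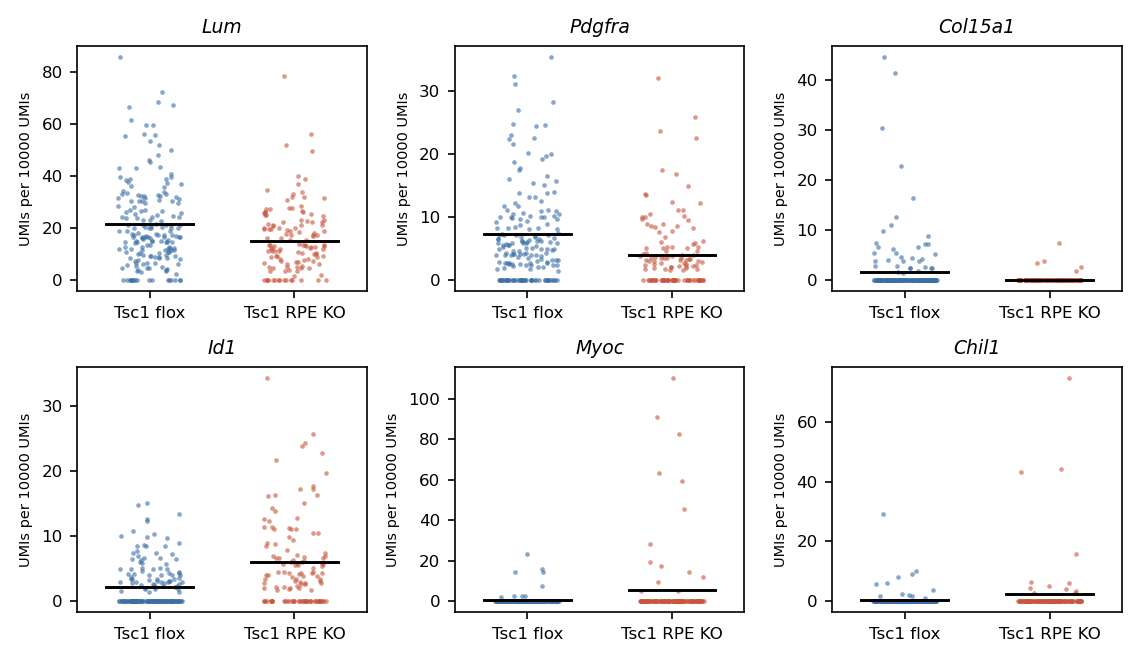
UMIs per 10000 UMIs of the cell (y axis) of 6 genes in each Edn3-type fibroblast of Tsc1 flox (blue, 186 cells) and Tsc1 RPE KO (red, 127 cells). Black lines are the summed level of the library. The lower Pdgfra and higher Id1 levels run through many cells. Col15a1 in Tsc1 flox rests on 35 cells, and Myoc and Chil1 in Tsc1 RPE KO on 14 and 12 cells.

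The counts per functional group stand beside 2.59% of all measured genes higher and 4.92% lower, and nothing is read from a share near these. Of 13 measured collagens, Col12a1 was higher (1.95-fold) and Col5a2 and Col6a2 lower (1.70-fold and 1.61-fold), with a median log2 ratio of -0.23. With no Sfrp2-type limit none of these 3 kept its call, at ratios of 0.711, 0.936 and 1.03. Of 11 measured genes of the retinoic acid list, 2 were higher, Dhrs3 (1.58-fold) among them, and Aldh1a2 (1.58-fold) and Rbp4 (1.98-fold) were lower. Aldh1a2 was at a ratio of 0.443 in members with Xist and 1.07 in members with a Y-linked UMI. Of 6 measured mural markers, Cspg4 (1.89-fold, 1.04 to 3.46) and Kcnj8 (1.68-fold, 1.22 to 2.33) were higher and 0 lower. Of 8 growth factor and receptor genes 1 was higher, and Pdgfra and Kitl lower. The interferon-stimulated list held 2 higher of 12, Irf7 (1.95-fold) and Irf1 (1.63-fold, at 0.765 in members with a Y-linked UMI), and the glycolysis and lysosome lists 0 of 10 and 0 of 17. Of 12 measured genes of the mTORC1 pathway, which loss of Tsc1 activates, only Sesn1, a sestrin that restrains mTORC1, passed, 1.77-fold lower (1.11 to 2.89), and the median log2 ratio was 0.02. All 3 measured globin genes were lower in Tsc1 RPE KO, Hba-a1 by 9.59-fold (3.92 to 30.4). Free RNA, read from barcodes with 10 to 100 UMIs, held 94398 CPM of the erythroid markers in flox and 37314 in Tsc1 RPE KO, and 10 flox members and 0 Tsc1 RPE KO members held 5 or more erythroid UMIs. Without members that held 5 or more UMIs of other cell types' markers, Hba-a1 was at a ratio of 0.160 and Hba-a2 at 0.659. The part of free RNA in the globin difference was not tested.

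The immediate early genes leaned 1 way in the sums and both ways within them. All 18 measured genes had a ratio above 1 in Tsc1 RPE KO, with a median log2 ratio of 0.41 against -0.04 over all measured genes. Without members that held 5 or more UMIs of other cell types' markers, Egr1 was at 0.990 and Btg2 at 0.985, and Atf3 at 1.47 no longer passed. Over all members, Atf3 (2.06-fold, 1.49 to 2.86) and Klf4 (1.95-fold, 1.57 to 2.43) passed 1.5-fold, while Fos stood at 3815 and 5378 CPM (1.41, 1.34 to 1.49) and Egr1 at 2520 and 2732 CPM (1.08, 1.01 to 1.16). Because each library pooled a male and a female, the members were divided by sex-linked transcripts into 100 and 69 members with Xist alone and 54 and 36 with Y-linked UMIs alone. All 18 genes were above 1 in members with Xist, with a median log2 ratio of 0.75. Over all measured genes these values were 2045 of 4636 and -0.06. Only 6 of 18 were above 1 in members with Y-linked UMIs, with a median of -0.20. Over all measured genes these were 2226 of 4636 and -0.02. Egr1 was at a ratio of 1.43 (1.30 to 1.59) in the former and 0.636 (0.552 to 0.731) in the latter. Btg2, an antiproliferative early gene, ran from 693.9 CPM in flox to 1274 in Tsc1 RPE KO in members with Xist and from 1216 to 668.7 CPM in members with Y-linked UMIs. With 1 animal of each sex per library, sex, animal and genotype cannot be told apart here.

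**Figure D5:**
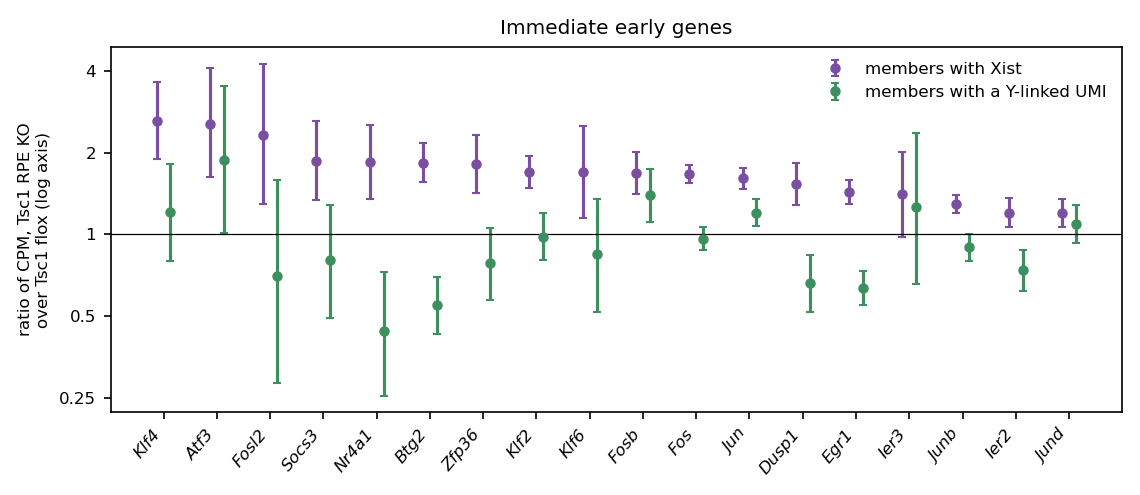
Ratio of CPM in Tsc1 RPE KO over Tsc1 flox (log axis) for the 18 measured immediate early genes, in members with Xist (purple) and members with a Y-linked UMI (green), with exact conditional intervals. All purple points lie above 1, and 12 of the 18 green points lie below 1.

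Pdgfra was at a ratio of 0.551 in members with Xist and 0.491 in members with Y-linked UMIs, Kitl at 0.681 and 0.472, and Col15a1 at 0.0825 and 0.128, each below 1 in both kinds of members. Cdkn1a, a cell cycle inhibitor, was 1.77-fold higher over all members, at a ratio of 5.04 in members with Xist and 0.730 in members with Y-linked UMIs, and Thbs1, thrombospondin 1, at 2.67 and 0.391.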

How the data were processed

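Single-cell RNA was measured in 2 libraries, 1 per genotype, with 10771118 and 12574364 UMIs. The deposited matrices hold raw UMI counts per gene and barcode, made with a 3′ v2 kit per the labels' protocols and aligned to mm10 per the submitters' processing notes. Those notes name Cell Ranger 2.1.1, whereas the matrix header names Cell Ranger 4, and this was not resolved. Whether counting used strand is not given in the sources used here, so genes that overlap an annotated gene (among them Myoc, Col15a1, Pdgfra, Sf3b3, Ptgis, Ubp1, Angpt1, Nrp2, Col12a1, Irf7, Thbs1, Hspa1a, Dusp1, Rspo3, Ednra, Ece1, Jun and Junb, and Sfrp2, Pi16, Ogn and Plvap of the rule) are uncertain.

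Barcodes were chosen by the rule in Python 3.11.15. Scrublet (scanpy 1.11.5) marked 8 and 22 barcodes as doublets, 0 and 1 of them members, which were kept. CPM used all UMIs of the members. Intervals were exact Poisson for levels, Clopper-Pearson for shares and conditional binomial for ratios (scipy 1.17.1), and cover counting error only. A gene with at least 50 UMIs over both libraries was measured, and a count of 0 was set to 3 for bounds. Fibroblast types were compared with edgeR 4.0.16 (R 4.3.3; TMM, filterByExpr, quasi-likelihood test with the library as a block, Benjamini-Hochberg adjustment), with DESeq2 1.42.0 as an alternative, and this fit was tested on simulated data. Lymphocytes were barcodes with Ptprc and at least 3 UMIs of lymphocyte markers.

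The genes named are those of the rule, the most abundant measured members of each list and those past the fold, the 20 highest and 12 lowest between fibroblast types, the 12 highest and 12 lowest between genotypes by the interval bound nearest 1, and the 12 most variable genes. Some genes that this names are not reported here. Ranked genes leave out the genes of the rule and, between genotypes and for variation, mitochondrial and sex-linked genes, markers of other cell types and genes with a higher CPM in free RNA. Alternatives varied the limits of the rule, the UMI minimum, thinning, the scaling, free RNA, doublets, sex-linked transcripts, the filter, the library block and the tool. The members, the lists and the tests were chosen with earlier results of these data known. Sequences are from RefSeq tables of GRCm38.p6, searched on both strands.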

Additional observations from a re-analysis of the deposited data

Results flagged for a closer look

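Because each library pooled a male and a female, the genotype ratio (Tsc1 RPE KO over Tsc1 flox) was also computed in members with Xist alone and in members with Y-linked UMIs alone. Of 4636 measured genes, 31 lay on opposite sides of 1 in these, with both counting intervals without 1, and 10 of these are genes the report describes or lists. With 1 animal per sex and library, the difference between the 2 ratios was not tested.

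All 10 were higher in members with Xist and lower in members with Y-linked UMIs. They were kept because the report names them, so their direction does not describe the other genes among the 31. Among the immediate early genes, the ratios were 1.84 and 0.550 for Btg2, 1.84 and 0.441 for Nr4a1, and 1.53 and 0.661 for Dusp1. Egr1 was at 1.43 and 0.636 and Ier2 at 1.20 and 0.737. Ptgs2, the inducible cyclooxygenase, was at 1.92 and 0.457, and Serpina3n, an acute-phase protease inhibitor, at 3.95 and 0.235. Npr3, the clearance receptor of natriuretic peptides, was at 2.92 and 0.202. In members with Y-linked UMIs, Npr3 had only 17 UMIs in flox and 2 in Tsc1 RPE KO, and Serpina3n 22 and 3. Mgp was at 1.37 and 0.657. The ratios of Rgs5, a pericyte marker read in few members, were 2.15 and 0.242. A single cell held 25.7% of its flox UMIs and another 35.6% of its Tsc1 RPE KO UMIs.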

How the results depend on the processing

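The share of members in Tsc1 flox was 10.5% at a minimum of 2500 UMIs. In flox and Tsc1 RPE KO it was 8.69% and 4.60% with an Sfrp2-type sum of 0, 15.8% and 8.93% with no limit on that sum, 9.28% and 5.68% without members with 5 or more UMIs of other cell types' markers (11.9% and 6.77% with Emcn not counted), and 39.4% and 24.4% of barcodes without Ptprc. It was lower in Tsc1 RPE KO under each of these settings. Between genotypes, genes past the fold numbered 68 higher and 70 lower with members thinned to 1500 UMIs, 199 and 370 measured at 20 UMIs, 62 and 106 measured at 100 UMIs, 25 and 56 at 2-fold, and 55 and 89 in members with Y-linked UMIs. The lower genes were 114 with an Sfrp2-type sum of 0 and 118 in members with Xist. Of 81 single-gene results between genotypes 18 stayed within their counting interval under every alternative, and 61 of 152 between types kept direction and call. A change of side of 1 was counted only for genes past 1.5-fold over all members, which leaves out genes such as Egr1 and Btg2, and 12 showed one. With an Sfrp2-type sum of 0 these were Chil1 at 0.411, Igfbp6 at 0.936 and Col12a1 at 0.780, and with no limit Chil1 at 0.948, Fbln2 at 1.78, Col6a2 at 1.03 and Col12a1 at 0.711. In members with Y-linked UMIs they were Id3 at 0.992, Aldh1a2 at 1.07, Hspa1a at 0.913, Irf1 at 0.765, Cdkn1a at 0.730 and Thbs1 at 0.391, and in members with Xist Dnajb1 at 1.09. Between fibroblast types, DESeq2 called 25 higher and 97 lower genes. With Sfrp2-type barcodes that held Sfrp2 or Fmod and no limit on the marker sum, the log2 difference changed sign for Foxd1 (-0.24), Npr3 (-1.53) and Ccn2 (-0.35). The cause of these changes was not tested. The fit without the library block called 171 higher and 257 lower. No paired analysis was possible between genotypes because each had 1 library. With 28 Sfrp2-type cells and 1 library per genotype, depth limits both comparisons for genes with few UMIs.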
